A study of Mus musculus with 25 samples.

Results

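De novo lipogenesis was followed through 10 genes in RNA sequencing of mouse liver and liver tumors. The genes were the regulators Srebf1 and Mlxipl, the enzymes Acly, Acss2, Acaca, Acacb, Fasn and Me1, and the accessory genes Thrsp and Pnpla3. They were chosen by name, as genes of this pathway, and each symbol was matched to 1 Ensembl gene of the 48795 genes listed. All 10 were among the 15625 genes with enough counts to be tested. The mice were male C57BL/6J, an inbred strain. Diethylnitrosamine (DEN), a carcinogen activated in hepatocytes, was injected into the abdomen at 2 weeks of age at a dose of 25 mg/kg, and a western-style diet (WD) or a control diet (CD) began at weaning. The groups were liver of mice without DEN on the control diet (nonDEN-L-CD, n = 3) or the western diet (nonDEN-L-WD, n = 4), and liver of DEN mice on the control diet (DEN-L-CD, n = 4). From DEN mice on the western diet, peritumoral liver (DEN-PT-WD, n = 8) and tumors (DEN-T-WD, n = 6) were taken. Tissue was collected at 36 weeks of age by the legend of the study, whose supplement names ages up to 39 weeks. By the study, tumors of DEN mice on the control diet were too small to be separated reliably from the liver around them. The DEN-L-CD libraries are labelled as liver, and whether that liver held small tumors is not given. The labels do not tie a library to a mouse, so tumors and peritumoral liver may share animals, and p-values measure the spread between libraries.

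De novo lipogenesis makes palmitate from acetyl-CoA. ATP-citrate lyase (Acly) or acetyl-CoA synthetase (Acss2) supplies cytosolic acetyl-CoA, acetyl-CoA carboxylase (Acaca, Acacb) makes malonyl-CoA, and fatty acid synthase (Fasn) uses both with NADPH, part of which malic enzyme (Me1) provides. In liver the genes are known to be driven by insulin and oxysterols through SREBP-1c, a product of Srebf1, and by carbohydrate through ChREBP, the product of Mlxipl.

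The stretches of DNA just before the starts of Srebf1, Fasn and Pnpla3 are shown as examples of known SREBP-1 targets whose stretch holds TCACCC. Each stretch is the 250 bases before a RefSeq transcript start, read 5′ to 3′ on the strand of the gene in GRCm38.p6. Capitals mark TCACCC, the core shared by many sterol response elements, and CCAAT, the word bound by NF-Y, each on either strand.
Srebf1, the most downstream of 3 starts, chr11:60210472-60210721, minus strand: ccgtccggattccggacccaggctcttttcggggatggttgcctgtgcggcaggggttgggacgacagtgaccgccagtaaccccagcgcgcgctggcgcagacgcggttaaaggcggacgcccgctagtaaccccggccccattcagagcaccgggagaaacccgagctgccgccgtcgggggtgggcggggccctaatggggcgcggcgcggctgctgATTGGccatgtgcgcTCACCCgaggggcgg
Fasn, chr11:120824548-120824797, minus strand: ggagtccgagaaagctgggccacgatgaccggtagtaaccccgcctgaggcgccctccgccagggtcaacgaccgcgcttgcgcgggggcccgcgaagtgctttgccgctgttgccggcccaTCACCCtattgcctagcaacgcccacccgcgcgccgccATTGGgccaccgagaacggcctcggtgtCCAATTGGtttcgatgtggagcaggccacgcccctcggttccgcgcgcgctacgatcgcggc
Pnpla3, chr15:84167566-84167815, plus strand: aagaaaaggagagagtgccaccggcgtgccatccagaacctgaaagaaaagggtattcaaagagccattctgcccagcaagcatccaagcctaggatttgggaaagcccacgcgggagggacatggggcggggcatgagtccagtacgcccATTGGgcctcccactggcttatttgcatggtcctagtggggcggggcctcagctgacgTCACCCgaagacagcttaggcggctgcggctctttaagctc
The table of RefSeq promoters held 14 such windows for the 10 genes. TCACCC lay in 5 of them, 1 each of Srebf1, Fasn, Pnpla3, Acss2 and Me1, and in 13.8% of all 32851 windows. The windows of Acly, Acaca, Acacb, Thrsp and Mlxipl and the other windows of Srebf1 did not hold it. CCAAT lay in 9 of the 14 windows, which belong to 8 genes, and in 33.8% of all windows. In Fasn 2 of the 3 CCAAT words overlap on opposite strands and form the run of 8 capitals. The Sp1 word GGGCGG lay in 7 of the 14 windows against 32.7% of all, and the E-box CACGTG in 1, a Mlxipl window, against 6.02% of all. A match describes the letters of these windows and does not show binding.

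Libraries held between 21530083 and 38074411 expected counts. Hepatocyte markers were abundant in all libraries, with Alb between 21878 and 99736 TPM (a level scaled for transcript length and library size). The tumor library DEN-T-WD 5 stood apart, with the 21878 TPM of Alb against 82845 to 99736 TPM in the other 5 tumors, and results between tumors and peritumoral liver are given without it where it changed a count or moved a value by over 1.5 times. In bulk tissue, fewer cells that express a gene and less RNA per cell cannot be told apart.

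Each gene was tested by edgeR's quasi-likelihood test in 1 fit over the 5 groups, and a gene was called changed when its p-value was 0.05 or less after adjustment (Benjamini-Hochberg over 15625 genes). Fold changes below come from this fit, with their standard error (SE), and per-library levels, and which libraries lay above or below others, are in TPM unless said otherwise. For the western diet without DEN, 1 of the 10 genes changed against nonDEN-L-CD, beside 23.2% of all genes. For DEN on the control diet, 3 changed against the same controls, beside 21.3% of all genes. DEN-PT-WD differed from DEN-L-CD in 1 of the 10 (10.6% of all genes) and from nonDEN-L-WD in 1 (12.4% of all genes). For tumors against peritumoral liver, 4 changed, beside 37.7% of all genes. Without DEN-T-WD 5 they were again 4, beside 41.3% of all genes. The interaction, the western diet effect with DEN minus that without DEN, passed for 1 of the 10 and for 8.39% of all genes. With DEN the western diet was represented by peritumoral liver and the control diet by DEN-L-CD, so diet and tissue cannot be told apart there. The other pairs of groups served to order the levels. Peritumoral liver differed from nonDEN-L-CD in 5 of the 10 (45.3% of all genes). Tumors differed from nonDEN-L-CD in 6 (54.0%), from nonDEN-L-WD in 4 (49.0%) and from DEN-L-CD in 5 (46.9%). Of the 10, 0 passed by edgeR when DEN-L-CD was set against nonDEN-L-WD (0.717% of all genes). At an unadjusted p under 0.05 there were 4, Acly, Acss2, Pnpla3 and Mlxipl. In no comparison did the share of the 10 genes stand far above the share of all genes, so the counts alone did not set the pathway apart, and the genes are described singly. Comparisons that share a group are not independent of each other.

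**Figure D1:**
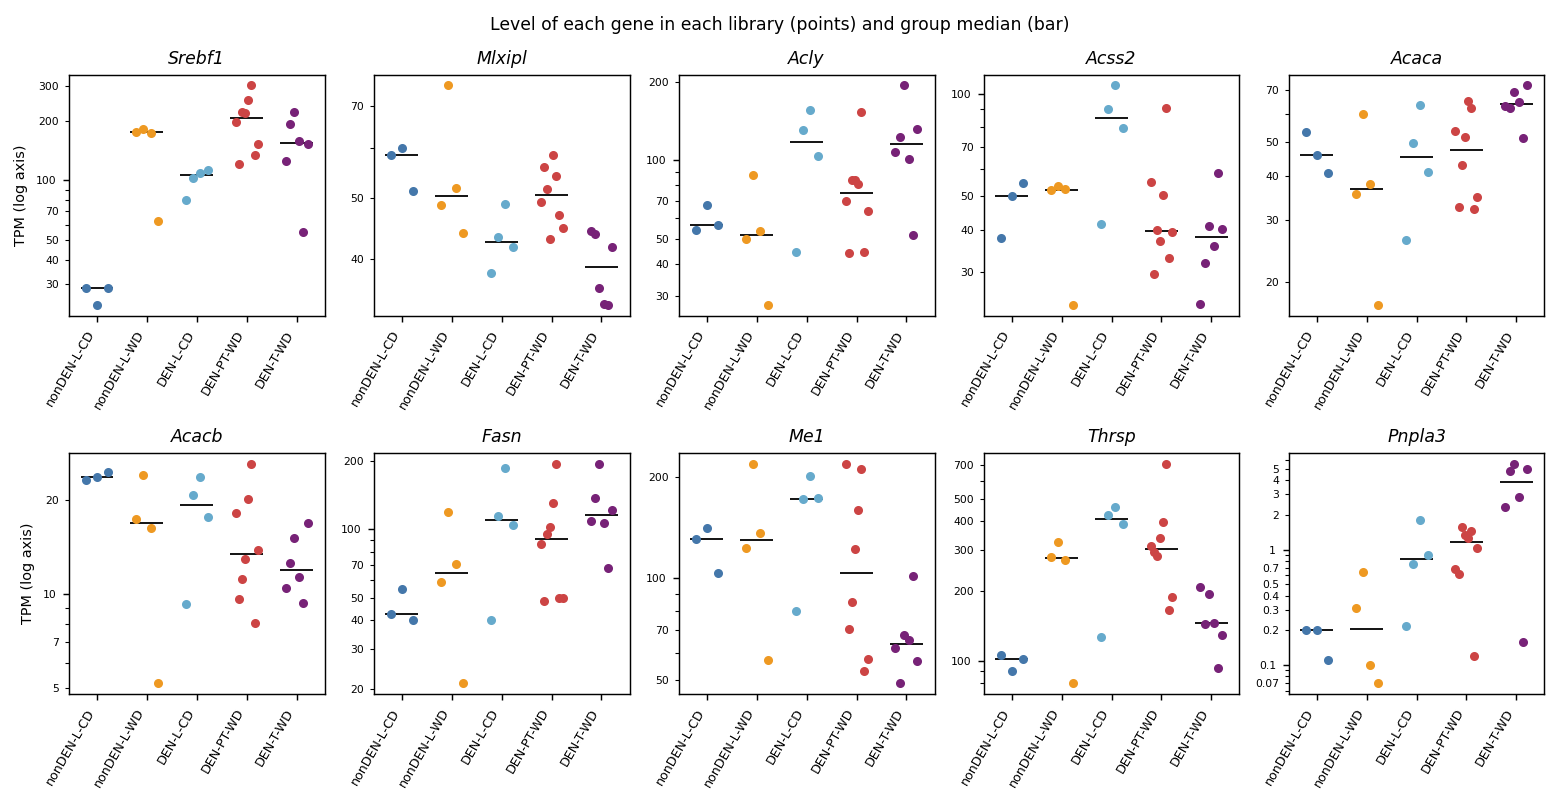
Level of each of the 10 genes in each library, in TPM on log axes, with 1 panel a gene, 1 point a library and a bar at the group median. Srebf1 in the 3 nonDEN-L-CD libraries lay between 23.7 and 28.9 TPM, below all 22 other libraries, while Fasn, Acly and Acaca overlapped in most pairs of groups.

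Srebf1, on chromosome 11 (GRCm38, 60199089 to 60222581, minus strand), encodes SREBP-1a and SREBP-1c, which the gene-level values do not separate. It stood at 28.9, 23.7 and 28.7 TPM in nonDEN-L-CD and at 175, 181, 174 and 62.2 TPM in nonDEN-L-WD. On the control diet with DEN it stood at 79.8, 103, 109 and 113 TPM. In DEN-PT-WD the lowest, median and highest libraries had 121, 207 and 300.4 TPM, and in DEN-T-WD 54.9, 155 and 221 TPM. Every library of the other 4 groups was above every nonDEN-L-CD library, and the lowest value among them, 54.9 TPM, was that of DEN-T-WD 5. Without DEN, Srebf1 was 5.38-fold higher on the western diet (log2 fold change 2.43 ± 0.41 SE, edgeR adjusted p = 0.000278). On the control diet it was 4.07-fold higher with DEN (log2 fold change 2.03 ± 0.40 SE, edgeR adjusted p = 0.00120). Both calls held with each of the 7 libraries of the comparison left out in turn.

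Among the 4 groups other than nonDEN-L-CD, the order of mean TPM from low to high was DEN-L-CD, then nonDEN-L-WD, then the tumors and then peritumoral liver, and no pair of them differed past the threshold. In counts normalized as in the test, the tumors (mean 4829) lay below nonDEN-L-WD (6047), so the order of these neighbours depends on the scale. DEN-PT-WD exceeded DEN-L-CD by 0.63 ± 0.31 (SE) on the log2 scale (edgeR adjusted p = 0.193), and DEN-T-WD lay 0.55 ± 0.27 (SE) below DEN-PT-WD (edgeR adjusted p = 0.113, log2 fold change -0.55). The interaction for Srebf1 was -1.80 ± 0.49 (SE) on the log2 scale (edgeR adjusted p = 0.0257). Peritumoral liver thus exceeded DEN-L-CD by less than nonDEN-L-WD exceeded nonDEN-L-CD, and diet and tissue cannot be told apart in the former pair. The interaction call was lost without nonDEN-L-CD 2 (adjusted p = 0.0870), nonDEN-L-CD 3 (0.0754), nonDEN-L-WD 1 (0.0507) or nonDEN-L-WD 3 (0.0506).

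Of 13 circadian clock genes, 1 was higher and 2 were lower in nonDEN-L-WD than in the nonDEN-L-CD controls, and likewise 1 and 2 in DEN-L-CD. These counts were near the share of all genes, 23.2% and 21.3%. Arntl, which encodes the clock activator BMAL1, stood at 1.40, 3.64 and 1.75 TPM in nonDEN-L-CD, at 0.54 to 0.89 TPM in nonDEN-L-WD and at 0.50 to 0.71 TPM in DEN-L-CD. Its log2 fold changes against nonDEN-L-CD were -1.88 ± 0.40 (SE, edgeR adjusted p = 0.00180) in nonDEN-L-WD and -1.95 ± 0.40 (SE, edgeR adjusted p = 0.00145) in DEN-L-CD. Per3, a clock repressor, moved the other way, by 1.18 and 1.19 on the log2 scale, and Clock, the partner of BMAL1, by -0.63 and -0.81. Arntl also had an interaction of 2.35 ± 0.52 (SE, edgeR adjusted p = 0.00763). Of 11 genes of feeding and fasting state, 1 rose and 1 fell on the western diet without DEN, and 1 fell with DEN on the control diet, fewer than the share of all genes. The gene that fell in both was Angptl4, a fasting-induced inhibitor of lipoprotein lipase, by 1.12 (log2 fold change -1.12, edgeR adjusted p = 0.000198) and 1.14 (-1.14, adjusted p = 0.000157). It stood at 139, 112 and 107 TPM in nonDEN-L-CD, at 54.6 to 63.8 TPM in nonDEN-L-WD and at 53.2 to 60.3 TPM in DEN-L-CD, so nonDEN-L-CD stood apart in Angptl4 as in Srebf1, with higher values. The time of day and the feeding state at collection are not given in the sources used here, and the part of either in the Srebf1 differences was not tested.

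Cfd, which encodes adipsin, a marker of adipocytes, moved with the same groups. It stood at 1.47 to 2.53 TPM in nonDEN-L-CD, at 16.2 to 72.7 TPM in nonDEN-L-WD and at 12.2 to 25.4 TPM in DEN-L-CD, and made up most of the sum of the adipocyte markers in every library of nonDEN-L-WD and of DEN-L-CD. The summed level of 7 such markers was 3.67 to 5.14 TPM in nonDEN-L-CD, 24.8 to 81.2 TPM in nonDEN-L-WD and 20.7 to 32.6 TPM in DEN-L-CD. It was 23.8 to 95.7 TPM in peritumoral liver and 9.96 to 47.6 TPM in tumors. Of the 7, 2 passed for the western diet without DEN, Cfd and Lep, and 1, Cfd, for DEN on the control diet. The call of Lep held in 1 of 7 fits with a library left out, and Lep was at 0 in all 3 nonDEN-L-CD libraries. Adipoq, which encodes the adipocyte hormone adiponectin, was at most 3.67 TPM in any library and at 0 in 3. Of 8 leukocyte markers 2 were higher on the western diet without DEN, Itgax and Cd79a (5 of 7 fits with a library left out), with summed levels of 20.2 to 26.9 TPM in nonDEN-L-CD and 23.1 to 46.4 TPM in nonDEN-L-WD. Of 7 markers of stellate cells and endothelium 2 were higher, the collagen genes Col3a1 and Col1a1 (6 of 7 fits), with sums of 86.1 to 105 TPM and 84.0 to 143 TPM. On the same diet without DEN 1 of 8 hepatocyte markers and 1 of 5 cholangiocyte markers were lower, and 0 of either were higher by edgeR. With DEN on the control diet 1 leukocyte marker was higher, and 1 stellate or endothelial marker was higher and 1 lower. The share of all genes in these comparisons was 23.2% for the western diet and 21.3% for DEN. The part of these cells in the Srebf1 differences was not tested.

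Of 19 regulators known to act on SREBP-1c, including the insulin receptor and its substrates, the LXR receptors and the SREBP escort Scap, 2 were lower and 0 higher on the western diet without DEN by edgeR, beside 23.2% of all genes. With DEN on the control diet 3 were lower, Akt2 (log2 fold change -0.39, adjusted p = 0.000718), Rxra (-0.34, adjusted p = 0.0102) and the SREBP retention protein Insig2 (-1.02, adjusted p = 0.0124), beside 21.3% of all genes. The calls of Rxra and Insig2 were lost without nonDEN-L-CD 2 (adjusted p = 0.0574 and 0.0591). In tumors 5 of the 19 rose and 2 fell against peritumoral liver, beside 37.7% of all genes, and 6 rose and 2 fell without DEN-T-WD 5. Against nonDEN-L-CD 1 rose and 7 fell in tumors, against nonDEN-L-WD 5 rose and 6 fell, and against DEN-L-CD 5 rose and 3 fell, beside 54.0%, 49.0% and 46.9% of all genes. LXR-responsive genes, which oxysterols induce, rose on the western diet in 4 of 7, beside 23.2% of all genes. These were the sterol transporters Abcg5 (1.42 ± 0.18 SE on the log2 scale, edgeR adjusted p = 1.33e-05), Abcg8 (1.29), Abcg1 (0.76) and the phospholipid acyltransferase Lpcat3 (0.53). With a library left out the calls of Abcg1 and Lpcat3 held in 4 and 2 of 7 fits. Abcg5 stood at 25.9, 20.1 and 26.4 TPM in nonDEN-L-CD, at 86.5, 71.5, 73.4 and 51.9 TPM in nonDEN-L-WD and at 41.2, 43.6, 34.9 and 45.4 TPM in DEN-L-CD, so these 3 groups did not overlap. In peritumoral liver against DEN-L-CD 4 of the 7 rose, beside 10.6% of all genes, again with Abcg5 (0.98 ± 0.14 SE, edgeR adjusted p = 0.000497), beside Abcg1, Mylip and Abcg8. With DEN on the control diet 2 of the 7 rose and 1 fell, beside 21.3% of all genes. In tumors 0 rose and 3 fell against peritumoral liver by edgeR (1 and 3 without DEN-T-WD 5), beside 37.7% of all genes. The median log2 fold change of the 7 was 0.53 for the western diet without DEN and 0.63 in peritumoral liver against DEN-L-CD. Over all genes tested it was 0.01 and 0.02.

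Mlxipl, on chromosome 5 (135089890 to 135138382, plus strand), had the smallest range of TPM of the 10 genes, 2.24-fold over the 25 libraries. It stood at 58.5, 59.96 and 51.3 TPM in nonDEN-L-CD, at 48.8, 75.6, 51.8 and 43.9 TPM in nonDEN-L-WD and at 37.9, 43.3, 48.9 and 41.7 TPM in DEN-L-CD. From the lowest to the highest, peritumoral libraries had 43.0 to 58.5 TPM (median 50.5) and tumors 33.8 to 44.3 TPM (median 38.8). Tumors were thus the lowest group, with 2 of the 6 above the lowest peritumoral library in TPM and 0 in normalized counts. Mlxipl fell from DEN-PT-WD to DEN-T-WD by 0.52 ± 0.10 (SE) on the log2 scale (log2 fold change -0.52, edgeR adjusted p = 0.000299), which held with each of 14 libraries left out. DEN-T-WD was also below nonDEN-L-CD (log2 fold change -1.04, edgeR adjusted p = 5.66e-07), nonDEN-L-WD (-0.87, adjusted p = 2.89e-06) and DEN-L-CD (-0.60, adjusted p = 0.000262).

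Smaller decreases of Mlxipl went with DEN, on the control diet (log2 fold change -0.44 ± 0.14 SE, edgeR adjusted p = 0.0262) and in peritumoral liver against nonDEN-L-WD (-0.35 ± 0.11 SE, edgeR adjusted p = 0.0427). The first call held in 2 of the 7 fits with a library left out and the second in 3 of 12, where the highest adjusted p was 0.0801 and 0.219. Without nonDEN-L-WD 2 the second was -0.21. In the second comparison 3 of 8 leukocyte, 4 of 7 stellate and endothelial and 1 of 5 cholangiocyte markers were higher, beside 12.4% of all genes, and 0 of 8 hepatocyte markers passed by edgeR. DEN-PT-WD and DEN-L-CD did not differ past the threshold (-0.07 ± 0.11 SE, edgeR adjusted p = 0.710).

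Of 13 partners of ChREBP and genes known to respond to it, 2 rose and 2 fell on the western diet without DEN, and 3 rose and 3 fell in tumors against peritumoral liver (3 and 4 without DEN-T-WD 5), beside 23.2% and 37.7% of all genes. In the tumors Tm6sf2, which acts in lipoprotein secretion (log2 fold change 0.67, edgeR adjusted p = 4.47e-06), and the hormone gene Fgf21 (1.72, adjusted p = 0.000432) rose, while G6pc, the last enzyme of glucose release (-1.38, adjusted p = 0.000349), and the glucose transporter Slc2a2 (-0.40, adjusted p = 0.00493) fell. The median over the 13 was 0.00 on the log2 scale. Of the 11 genes of feeding and fasting state, 2 rose and 5 fell in tumors, also without DEN-T-WD 5, beside 37.7% of all genes. Among the former was Igfbp1, an insulin-repressed gene (log2 fold change 2.24, edgeR adjusted p = 0.000415). Igfbp1 stood at 82.6 TPM in DEN-T-WD 5 and at 946 to 1757 TPM in the other tumors. Among the genes that fell was G6pc, which is in both lists, as Fgf21 is.

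**Figure D2:**
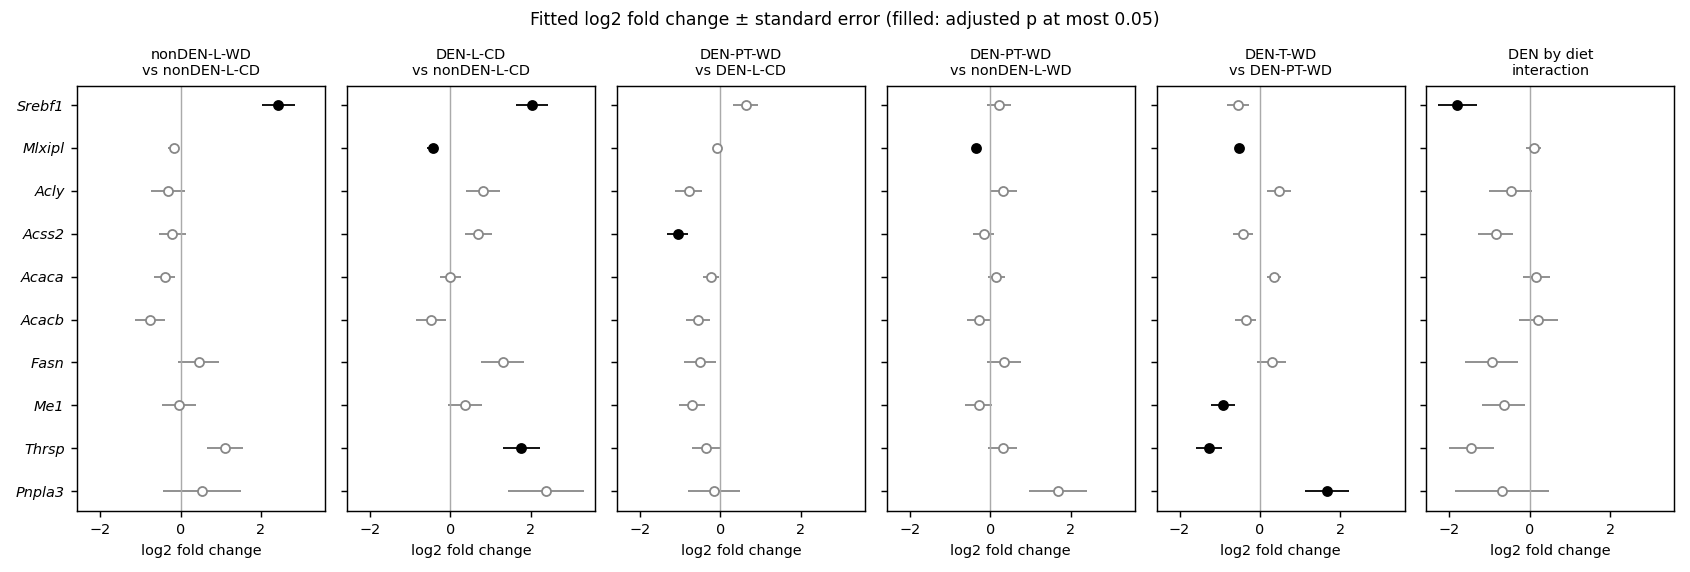
Fitted log2 fold change (horizontal axis) with its standard error for each of the 10 genes in 5 comparisons of groups and the interaction of DEN with diet, where filled points passed an adjusted p of 0.05. Srebf1 passed in the first 2 comparisons and the interaction, and 4 genes, Mlxipl, Me1, Thrsp and Pnpla3, passed between tumors and peritumoral liver.

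Acly, which cleaves citrate to cytosolic acetyl-CoA, lies on chromosome 11 (100476353 to 100528000, minus strand). It stood at 53.8, 67.2 and 56.6 TPM in nonDEN-L-CD, at 49.7, 87.9, 53.3 and 27.9 TPM in nonDEN-L-WD and at 44.3, 131, 156 and 104 TPM in DEN-L-CD. In peritumoral liver the median was 75.1 TPM, between 44.2 and 153, and in tumors it was 116 TPM, between 51.5 and 194. All groups overlapped, and Acly passed in none of the 10 pairs of groups. DEN-L-CD was 0.81 ± 0.43 (SE) above nonDEN-L-CD on the log2 scale (edgeR adjusted p = 0.188), and tumors were 0.47 ± 0.30 (SE) above peritumoral liver (edgeR adjusted p = 0.232). The comparisons of peritumoral liver with tumors and with DEN-L-CD turned on its highest library, DEN-PT-WD 6. Without it Acly was higher in tumors (log2 fold change 0.70, edgeR adjusted p = 0.0469) and lower in peritumoral liver than in DEN-L-CD (-1.02, adjusted p = 0.0254).

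Acss2, which activates acetate, lies on chromosome 2 (155517948 to 155585724, plus strand), and its exons overlap those of Gss, Ggt7 and Acss2os on the other strand, so their reads may be mixed. It stood at 37.9, 50.2 and 54.8 TPM in nonDEN-L-CD, at 52.2, 53.5, 52.5 and 24.1 TPM in nonDEN-L-WD and at 41.6, 90.2, 106 and 79.6 TPM in DEN-L-CD. Peritumoral libraries ran from 29.6 to 90.8 TPM with a median of 39.6, and tumor libraries from 24.2 to 58.5 TPM with a median of 38.0. The 3 highest DEN-L-CD libraries were above all other libraries but DEN-PT-WD 6. Acss2 was 2.08-fold lower in peritumoral liver than in DEN-L-CD (log2 fold change -1.06 ± 0.26 SE, edgeR adjusted p = 0.0129), a call lost without DEN-L-CD 3 (-0.90, adjusted p = 0.0627). In that comparison 5 of 7 stellate and endothelial markers, 2 of 8 leukocyte markers and 1 of 5 cholangiocyte markers were higher and 1 of 8 hepatocyte markers was lower, beside 10.6% of all genes. The stellate and endothelial sum was 130 to 196 TPM in peritumoral liver and 97.3 to 112 TPM in DEN-L-CD, and the part of these cells in the Acss2 difference was not tested. Tumors were also below DEN-L-CD (log2 fold change -1.48, edgeR adjusted p = 0.000162) and nonDEN-L-CD (-0.79, adjusted p = 0.0295), and not past the threshold below peritumoral liver (-0.42 ± 0.24 SE, adjusted p = 0.173).

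Around these enzymes, 12 genes supply mitochondrial citrate, pyruvate or acetate. Of these, 5 rose and 1 fell on the western diet without DEN, beside 23.2% of all genes. The mitochondrial acyl-CoA synthetase gene Acss3 (log2 fold change 1.76, edgeR adjusted p = 0.00466) and the pyruvate carrier gene Mpc1 (0.54, adjusted p = 0.0256, held in 3 of 7 fits with a library left out) rose, and the monocarboxylate transporter gene Slc16a1 fell (-0.91, adjusted p = 0.000132). The rise of Acss1, a related gene (2.42, edgeR adjusted p = 0.0279), rested on nonDEN-L-WD 1, at 1.83 TPM against 0.15 to 0.24 TPM in the other 3 and 0.10 to 0.18 TPM in nonDEN-L-CD, and without it was 0.90 (adjusted p = 0.334). In tumors against peritumoral liver 1 rose and 5 fell, beside 37.7% of all genes, and 1 rose and 7 fell without DEN-T-WD 5. Acss3 fell there by 1.69 on the log2 scale (log2 fold change -1.69, edgeR adjusted p = 0.000126), citrate synthase Cs changed by -0.47 (adjusted p = 0.00211), the pyruvate dehydrogenase subunit Pdha1 by -0.30 (adjusted p = 0.00723), and Slc16a1 rose by 0.48 (adjusted p = 0.000733).

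Acaca encodes the cytosolic carboxylase whose malonyl-CoA feeds synthesis, and lies on chromosome 11 (84129672 to 84401651, plus strand). Of its words of 50 bases, 30.4% also occur in transcripts of other genes, mostly the processed pseudogene Gm5182. That pseudogene is not among the genes listed, so the counts of Acaca may hold reads from it. Acaca stood at 53.4, 45.9 and 40.8 TPM in nonDEN-L-CD, at 35.5, 59.8, 37.9 and 17.2 TPM in nonDEN-L-WD and at 26.3, 49.6, 63.4 and 40.9 TPM in DEN-L-CD. From the lowest to the highest, peritumoral libraries had 32.1 to 65.4 TPM (median 47.2) and tumors 51.3 to 72.2 TPM (median 64.0). Tumors were the highest group in mean TPM and overlapped with peritumoral liver. Acaca passed in none of the 10 pairs of groups. Tumors exceeded peritumoral liver by 0.35 ± 0.18 (SE) on the log2 scale (edgeR adjusted p = 0.141) and nonDEN-L-WD by 0.50 ± 0.22 (SE, adjusted p = 0.0636).

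Acacb encodes the mitochondrial carboxylase whose malonyl-CoA restrains fatty acid oxidation, and lies on chromosome 5 (114146535 to 114250761, plus strand). It stood at 23.2, 23.7 and 24.5 TPM in nonDEN-L-CD, at 17.3, 24.1, 16.3 and 5.17 TPM in nonDEN-L-WD and at 9.25, 20.6, 23.6 and 17.6 TPM in DEN-L-CD. In peritumoral liver the median was 13.3 TPM, between 8.04 and 26.0, and in tumors it was 11.9 TPM, between 9.36 and 16.8. The order of mean TPM from high to low was nonDEN-L-CD, then DEN-L-CD, then nonDEN-L-WD, then peritumoral liver and then tumors, and no neighbours in it differed past the threshold. Against nonDEN-L-CD, Acacb was 2.64-fold lower in tumors (log2 fold change -1.40 ± 0.34 SE, edgeR adjusted p = 0.00136) and 2.06-fold lower in peritumoral liver (-1.04 ± 0.32 SE, edgeR adjusted p = 0.0111). The tumor values did not overlap with those of nonDEN-L-CD, and 1 peritumoral library, DEN-PT-WD 6, lay above them in TPM and below them in normalized counts. Against the same controls leukocyte markers were higher in 6 of 8 in tumors and in peritumoral liver, with summed levels of 44.2 to 113 TPM and 35.9 to 75.6 TPM against 20.2 to 26.9 TPM. Of 8 hepatocyte markers 6 were lower and 1 higher in tumors, and 5 lower in peritumoral liver, and of 7 stellate and endothelial markers 5 were higher and 2 lower, and 4 higher. These counts stand beside 54.0% and 45.3% of all genes, and the part of these cells in the changes of Acacb, Mlxipl and Pnpla3 was not tested. Acaca had no such difference, with 0.11 ± 0.24 (SE) in tumors against nonDEN-L-CD (edgeR adjusted p = 0.734); the difference between the 2 carboxylases was not tested.

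Of 10 genes that regulate acetyl-CoA carboxylase or malonyl-CoA, Hlcs, the enzyme that attaches biotin to carboxylases, rose on the western diet without DEN (log2 fold change 1.01 ± 0.16 SE, edgeR adjusted p = 0.000144) and with DEN on the control diet (0.77, adjusted p = 0.00174). Mid1ip1, which promotes polymerization of the carboxylase and is related to Thrsp, rose with DEN on the control diet (1.00, edgeR adjusted p = 0.0231, held in 3 of 7 fits with a library left out). In tumors against peritumoral liver the kinase subunit Prkab1 rose (0.83 ± 0.09 SE, edgeR adjusted p = 1e-06), and malonyl-CoA decarboxylase Mlycd (-0.45, adjusted p = 0.00100) and the kinase Stk11 (-0.27, adjusted p = 0.00183) fell. The counts of the 10, 1, 2 and 3 in these comparisons, stand beside 23.2%, 21.3% and 37.7% of all genes.

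Fasn, the synthase of palmitate, lies on chromosome 11 (120805846 to 120824547, minus strand). It stood at 42.6, 54.8 and 40.2 TPM in nonDEN-L-CD, at 58.9, 119, 70.4 and 21.2 TPM in nonDEN-L-WD and at 40.1, 114, 187 and 105 TPM in DEN-L-CD. Peritumoral libraries ran from 48.8 to 194 TPM with a median of 91.0, and tumor libraries from 67.4 to 193 TPM with a median of 116. Every tumor library was above every nonDEN-L-CD library, and the other groups overlapped. Fasn passed in none of the 10 pairs of groups. Its largest differences were from nonDEN-L-CD, 1.30 ± 0.53 (SE) on the log2 scale in DEN-L-CD (edgeR adjusted p = 0.0825) and 1.09 ± 0.50 (SE) in DEN-T-WD (edgeR adjusted p = 0.0684). Without DEN-L-CD 1, the lowest library of its group, the first became 1.57 (edgeR adjusted p = 0.0388). The western diet without DEN gave 0.45 ± 0.51 (SE, edgeR adjusted p = 0.573), and 0.0446 to 0.73 with a library left out, with nonDEN-L-WD 4 below all 3 control libraries, beside the 5.38-fold rise of Srebf1 in the same libraries.

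Me1, the cytosolic malic enzyme that yields NADPH, lies on chromosome 9 (86581371 to 86695953, minus strand). Of its words of 50 bases, 28.3% occur in other genes, mostly the processed pseudogene Gm7049, which is also not among the genes listed. It stood at 131, 141 and 104 TPM in nonDEN-L-CD, at 123, 218, 137 and 57.3 TPM in nonDEN-L-WD and at 79.9, 172, 202 and 173 TPM in DEN-L-CD. From the lowest to the highest, peritumoral libraries had 53.1 to 219 TPM (median 104) and tumors 48.8 to 102 TPM (median 63.8). All tumor libraries were below all nonDEN-L-CD libraries, and the highest tumor value was that of DEN-T-WD 5. Me1 was lower in tumors than in each other group, by 1.89-fold against DEN-PT-WD (log2 fold change -0.92 ± 0.30 SE, edgeR adjusted p = 0.0194), 3.07-fold against DEN-L-CD (adjusted p = 0.000622), 2.38-fold against nonDEN-L-CD (adjusted p = 0.00715) and 2.30-fold against nonDEN-L-WD (adjusted p = 0.00642). The call against DEN-PT-WD was lost without DEN-PT-WD 6 (-0.73, adjusted p = 0.0503) and held without DEN-T-WD 5 (-1.07, adjusted p = 0.00904). No other pair of groups passed for Me1.

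Of 8 other genes that supply NADPH, 3 rose and 1 fell in tumors against peritumoral liver, also without DEN-T-WD 5, beside 37.7% of all genes, with the pentose phosphate dehydrogenases Pgd (log2 fold change 1.20 ± 0.29 SE, edgeR adjusted p = 0.00214) and G6pdx (0.74, adjusted p = 0.000686) and their homologue of the endoplasmic reticulum H6pd (0.51, adjusted p = 1.64e-05) higher, and the isocitrate dehydrogenase Idh1 lower (-0.28, adjusted p = 0.0158). Without DEN-T-WD 5 Pgd was 0.64 (edgeR adjusted p = 0.00808), and Idh1 lost its call without DEN-T-WD 1 (-0.22, adjusted p = 0.0504). On the western diet without DEN 1 of the 8 was lower, H6pd (-0.76, edgeR adjusted p = 3.24e-05), and 1 higher, the transhydrogenase gene Nnt (0.43, adjusted p = 0.0423, held in 1 of 7 fits with a library left out), beside 23.2% of all genes.

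Thrsp (Spot 14), a small nuclear and cytosolic protein induced with lipogenesis, lies on chromosome 7 (97412938 to 97417730, minus strand). It stood at 105, 90.2 and 102 TPM in nonDEN-L-CD, at 281, 324, 273 and 80.1 TPM in nonDEN-L-WD and at 126, 427, 460.4 and 388 TPM in DEN-L-CD. In peritumoral liver the median was 304 TPM, between 165 and 708, and in tumors it was 145 TPM, between 93.0 and 207. All libraries of DEN-L-CD and DEN-PT-WD were above all nonDEN-L-CD libraries, and in nonDEN-L-WD replicate 4 was below them while the other 3 were above. On the control diet Thrsp was 3.39-fold higher with DEN (log2 fold change 1.76 ± 0.46 SE, edgeR adjusted p = 0.00921), a call lost without nonDEN-L-CD 2 (1.67, adjusted p = 0.0549). The western diet without DEN gave 1.10 ± 0.45 (SE, edgeR adjusted p = 0.0811), and 1.36 (adjusted p = 0.0270) without nonDEN-L-WD 4.

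Tumors had 2.41-fold less Thrsp than peritumoral liver (log2 fold change -1.27 ± 0.32 SE, edgeR adjusted p = 0.00339), and the call held with each of 14 libraries left out, at -1.15 without DEN-T-WD 5. Tumors were also below DEN-L-CD (log2 fold change -1.62, edgeR adjusted p = 0.000992) and nonDEN-L-WD (-0.96, adjusted p = 0.0340), and did not differ past the threshold from nonDEN-L-CD (0.14 ± 0.41 SE, adjusted p = 0.789). The order of mean TPM from low to high was nonDEN-L-CD, then tumors, then nonDEN-L-WD, then peritumoral liver and then DEN-L-CD. Of the neighbours in that order, only the tumors and nonDEN-L-WD differed past the threshold.

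Pnpla3, a lipid droplet protein that acts on triglycerides, lies on chromosome 15 (84167837 to 84187236, plus strand). Its exons share 105 bases (6.78% of its exonic bases) with Gm49513 on the same strand, so their reads may be mixed. Pnpla3 was the lowest of the 10 genes in every group, at 0.07 to 5.53 TPM, from 7 to 468 expected counts. It stood at 0.20, 0.20 and 0.11 TPM in nonDEN-L-CD, at 0.31, 0.64, 0.10 and 0.07 TPM in nonDEN-L-WD and at 0.22, 0.75, 1.82 and 0.90 TPM in DEN-L-CD. Peritumoral libraries ran from 0.12 to 1.57 TPM with a median of 1.16, and tumor libraries from 0.16 to 5.53 TPM with a median of 3.85. Other than DEN-T-WD 5 at 0.16 TPM, every tumor was above every library of the other groups in TPM. In normalized counts the lowest of these tumors (167) was below the highest DEN-L-CD library (178), so these groups overlapped. Tumors had 3.18-fold more Pnpla3 than peritumoral liver (log2 fold change 1.67 ± 0.55 SE, edgeR adjusted p = 0.0194), and 1.92 ± 0.45 (SE, adjusted p = 0.00140) without DEN-T-WD 5. That call was lost without DEN-T-WD 3 (1.46, adjusted p = 0.0516).

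Tumors also exceeded nonDEN-L-CD by 3.89 ± 0.94 (SE) on the log2 scale (edgeR adjusted p = 0.00130) and nonDEN-L-WD by 3.35 ± 0.78 (SE, edgeR adjusted p = 0.00116), and DEN-PT-WD exceeded nonDEN-L-CD by 2.22 ± 0.88 (SE, edgeR adjusted p = 0.0430). DEN-L-CD lay 2.37 ± 0.94 (SE) above nonDEN-L-CD without passing (edgeR adjusted p = 0.0744), although DESeq2's Wald test passed it (adjusted p = 0.0196). Thrsp and Pnpla3 thus differed between tumors and peritumoral liver in opposite directions.

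Of 11 tested genes that desaturate, elongate, activate or esterify fatty acids, 0 passed on the western diet without DEN by edgeR, beside 23.2% of all genes. The lowest adjusted p there was 0.145, for Elovl6. With DEN on the control diet Scd2, a stearoyl-CoA desaturase of low level in normal liver, rose (log2 fold change 2.53 ± 0.58 SE, edgeR adjusted p = 0.00365), beside 21.3% of all genes changed. In tumors against peritumoral liver 4 rose and 2 fell, beside 37.7% of all genes, and 6 rose and 2 fell without DEN-T-WD 5. With all libraries Scd2 rose (1.79 ± 0.36 SE, edgeR adjusted p = 0.000511) while Scd1, the main hepatic desaturase, fell (-1.06 ± 0.35 SE, edgeR adjusted p = 0.0198). Scd2 stood at 39.1 to 101 TPM in tumors and 6.67 to 36.4 TPM in peritumoral liver, without overlap, and Scd1 at 1492 to 4690 TPM and 1759 to 10628 TPM, with overlap. The acyl-CoA synthetase genes Acsl5 (0.86, edgeR adjusted p = 0.00312) and Acsl1 (-0.74, adjusted p = 0.00115) also moved apart.

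Cholesterol synthesis, which SREBP-2 drives and which shares acetyl-CoA and NADPH with lipogenesis, was set beside the 10 genes. Of its 17 genes, 4 fell and 0 rose on the western diet without DEN by edgeR, a share near the 23.2% of all genes, led by Idi1 (log2 fold change -1.69, adjusted p = 9.97e-05), Sqle (-3.13, adjusted p = 0.000970) and Cyp51 (-1.25, adjusted p = 0.00496), in the libraries where Srebf1 rose. The call of Cyp51 was lost without nonDEN-L-CD 2 (-0.94, edgeR adjusted p = 0.0592). With DEN on the control diet 4 rose, near the 21.3% of all genes, with the lowest adjusted p for Fdft1, which encodes squalene synthase (1.13, edgeR adjusted p = 0.000745). In peritumoral liver against DEN-L-CD 6 fell, beside 10.6% of all genes, with Idi1 at -1.58 (edgeR adjusted p = 0.000293). In tumors against peritumoral liver 14 of 17 rose and 0 fell by edgeR, beside 37.7% of all genes, with a median log2 fold change of 0.76 against 0.01 over all genes tested, and 15 rose without DEN-T-WD 5. Tumors against nonDEN-L-CD had 9 higher and 0 lower and against nonDEN-L-WD 13 and 0, beside 54.0% and 49.0% of all genes. Against DEN-L-CD they had 2 higher and 2 lower, with a median of 0.15, beside 46.9% of all genes. DEN-L-CD itself had 6 of 17 higher than nonDEN-L-WD, beside 0.717% of all genes. Against peritumoral liver Dhcr7 (1.16), Mvk (0.88), Cyp51 (1.02) and Mvd (1.39) had the lowest adjusted p, and Srebf2, which encodes SREBP-2, rose as well (0.57 ± 0.09 SE, edgeR adjusted p = 4e-05). Over the 10 lipogenic genes the median in the comparison with peritumoral liver was -0.39. The difference between the 2 lists was not tested.

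**Figure D3:**
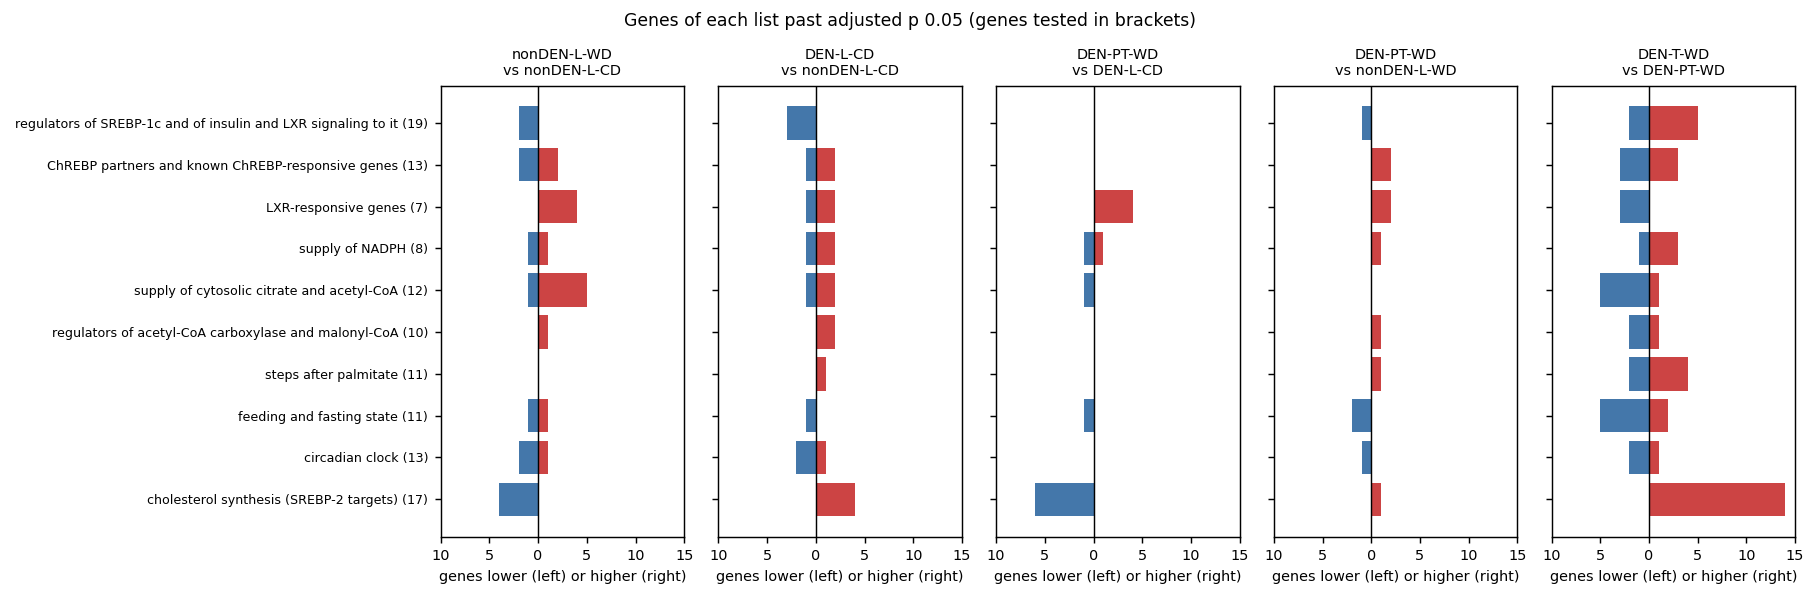
Number of genes of each list that were higher (right, red) or lower (left, blue) at an adjusted p of at most 0.05 in 5 comparisons, with the number tested in brackets. Cholesterol synthesis had 14 of 17 genes higher in tumors than in peritumoral liver. LXR-responsive genes had 4 of 7 higher both on the western diet without DEN and in peritumoral liver against DEN-L-CD.

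Tumors also differed from peritumoral liver in markers of cell types. The summed level of 8 hepatocyte markers was 33077 to 132900 TPM in tumors and 44935 to 71378 TPM in peritumoral liver, with 2 markers higher, Apoa1 and Alb, and 2 lower, Cps1 and Tat. Without DEN-T-WD 5, 3 were higher and 2 lower. The summed level of 5 cholangiocyte markers was 385 to 833 TPM in tumors and 72.7 to 324.5 TPM in peritumoral liver, and 2 of them, Spp1 and Sox9, passed. Spp1, which encodes osteopontin and is also made by other cells, made up most of that sum in every library, at 372 to 817 TPM in tumors and 60.9 to 317 TPM in peritumoral liver. The cholangiocyte keratins Krt19 (log2 fold change -0.96, edgeR adjusted p = 0.109) and Krt7 (-0.70, adjusted p = 0.161) did not pass. Of 8 leukocyte markers 0 passed by edgeR, with the lowest adjusted p at 0.0807, for Itgax. Of 7 stellate and endothelial markers 3 rose and 2 fell, with sums of 139 to 198 TPM in tumors and 130 to 196 TPM in peritumoral liver. Of the 7 adipocyte markers Cfd fell, a call that held in 9 of 14 fits with a library left out. These counts stand beside 37.7% of all genes. In tumors against nonDEN-L-WD and against DEN-L-CD, 1 hepatocyte marker was higher and 5 lower, 4 and 3 leukocyte markers were higher, and 4 stellate or endothelial markers were higher and 1 lower, beside 49.0% and 46.9% of all genes. The part of the makeup of the tissue in the changes of Mlxipl, Thrsp, Me1 and Pnpla3 was not tested.

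Libraries of the same group differed from each other in most of the 10 genes at once. On log2 CPM (counts scaled for library size, on a log scale), nonDEN-L-WD 4, DEN-L-CD 1 and DEN-PT-WD 7 were below their group mean in all 10 genes, and replicate 2 of nonDEN-L-WD, replicate 3 of DEN-L-CD and replicates 5 and 6 of DEN-PT-WD were above it in all 10. DEN-T-WD 5 was below in 8 and above in 2, Me1 and Acss2. For Fasn the standard deviation of log2 CPM was 0.19 over the 3 nonDEN-L-CD libraries and 0.54 to 0.97 in the other groups. For Srebf1 and Mlxipl it was smallest in DEN-L-CD, at 0.21 and 0.10.

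**Figure D4:**
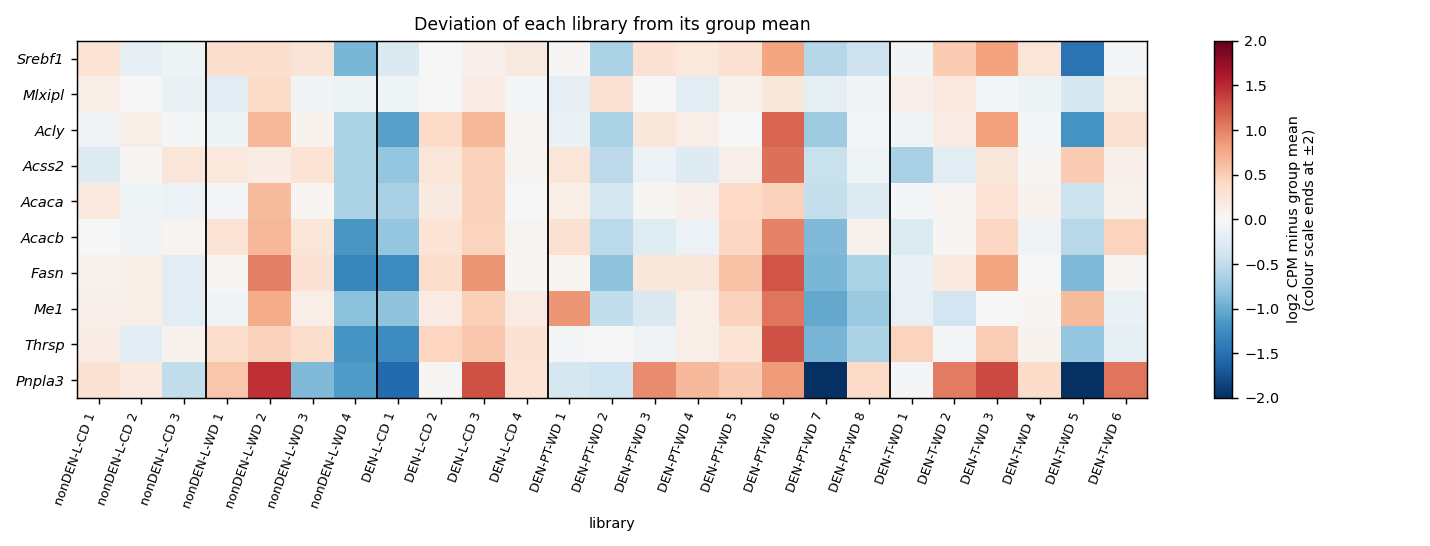
Log2 CPM of each gene (rows) in each library (columns) minus the mean of its group, on a colour scale that ends at ±2, with lines between groups. Libraries such as nonDEN-L-WD 4, DEN-L-CD 1 and DEN-PT-WD 7 were below their group mean in all 10 genes, and DEN-PT-WD 6 was above in all 10.

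Over these deviations of the 25 libraries, Fasn was most like Acaca (Pearson's r = 0.97), Acly (0.92), Acacb (0.90) and Thrsp (0.89), and least like Mlxipl (0.48). Ranked among 10340 genes with at least 100 mean normalized counts, these 4 held the places 1, 3, 4 and 5, and Elovl6, the elongase that acts on palmitate, held the place 2 (0.92). The next genes most like Fasn that are not among the 10 were D130043K22Rik (0.88), Pstpip2 (0.88), Fdps (0.87) and Cyb5b (0.87). Srebf1 was most like Gpam, which starts glycerolipid synthesis (0.89), the sterol enzyme gene Sc5d (0.89), Frmd4b (0.89) and Acsl5 (0.86), and among the 10 genes most like Fasn (0.82) and least like Acss2 (0.34). The points share library depth and RNA quality across genes and are a description, with no test.

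The 2 regulators were then tested against the other genes within the groups with at least 6 libraries, in 34 relations, by an exact two-sided permutation test with Benjamini-Hochberg adjustment over the 34. Of these, 9 passed with Pearson's r and 1 with Spearman's rho, and 14 had an unadjusted p of at most 0.05 for r. No such test was run over all genes, so the share of all genes that would pass is not known. Over the deviations of the 25 libraries, Fasn held the place 26 among the 10340 ranked genes most like Srebf1. Within DEN-PT-WD (n = 8) Srebf1 was related to Fasn with r = 0.987 (exact p = 0.000149, adjusted 0.00506) and rho = 0.952 (exact p = 0.00114, adjusted 0.0388), and r was 0.984 without the 2 libraries farthest from the median of Srebf1. Acaca (r = 0.938, rho = 0.881), Acly (0.907, 0.881), Thrsp (0.831, 0.667) and Acss2 (0.806, 0.738) also passed with r, with exact permutation adjusted p between 0.0118 and 0.0452, and r without the 2 farthest libraries was 0.881, 0.806, 0.948 and 0.680. The other relations of Srebf1 there, with Acacb, Me1, Pnpla3 and Mlxipl, were positive with r between 0.144 and 0.809 and did not pass.

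Within DEN-T-WD (n = 6), Srebf1 passed with Fasn (r = 0.952, rho = 0.943, exact permutation adjusted p = 0.0283 for r), Acly (0.945, 0.829, adjusted p = 0.0472) and Acaca (0.968, 0.829, adjusted p = 0.0472). The 2 libraries farthest from the median of Srebf1, DEN-T-WD 5 among them, carried the last pair. Without them r was 0.873 for Fasn, 0.118 for Acly and 0.467 for Acaca. In the tumors Me1 and Acss2 had negative r to Srebf1, at -0.815 and -0.412, and neither passed (exact permutation adjusted p = 0.164 and 0.532). Their rho was -0.314 and -0.0857, and without the 2 farthest libraries r was -0.511 for Me1 and turned to 0.195 for Acss2. Me1 had r = -0.970 to Mlxipl (rho = -0.943, exact permutation adjusted p = 0.0236 for r), and -0.988 without the 2 libraries farthest from the median of Mlxipl. Mlxipl had no other relation that passed in either group, with r between 0.190 and 0.563 to the 8 genes in DEN-PT-WD.

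**Figure D5:**
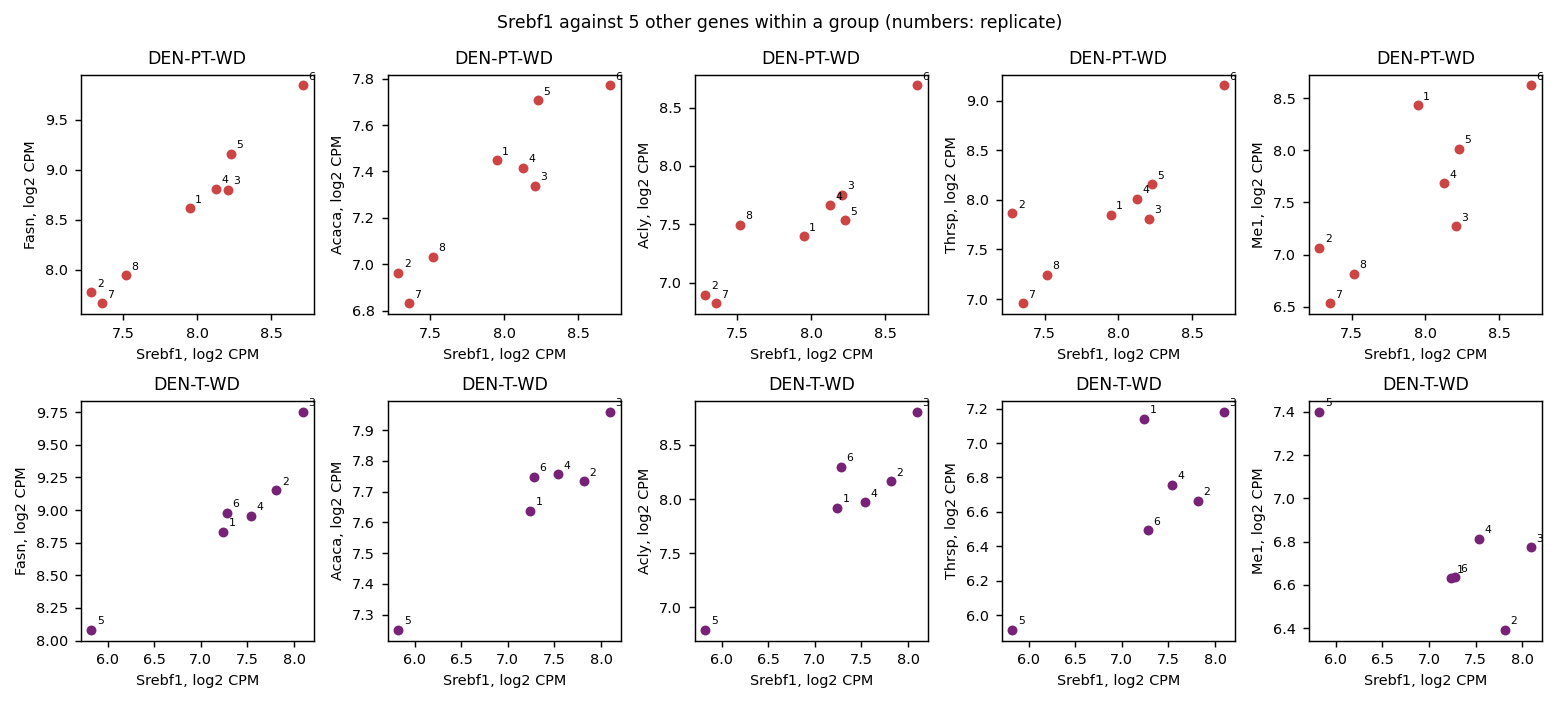
Log2 CPM of Fasn, Acaca, Acly, Thrsp and Me1 (vertical axes) against that of Srebf1 (horizontal axes) in the 8 DEN-PT-WD libraries (top) and the 6 DEN-T-WD libraries (bottom), each point a library marked with its replicate number. Fasn followed Srebf1 in both groups, with r = 0.987 and 0.952, and Me1 had r = 0.809 in peritumoral liver and -0.815 in tumors, where replicate 5 lies far from the rest.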

How the data were processed

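RNA of 25 libraries from mouse liver and liver tumors was sequenced as single-end reads after mRNA library preparation (KAPA mRNA HyperPrep). The authors checked reads with FastQC, aligned them to GRCm38 with STAR and quantified genes with RSEM, whose expected counts, TPM and FPKM per gene and library were deposited. Expected counts need not be whole numbers, and TPM and FPKM are levels per transcript length. FPKM served only as an alternative unit for the levels. The study names a version for FastQC. The sources used here name none for STAR or for RSEM. They also leave out the strand setting and which release of the annotation was used. Symbols were found for 48349 of 48795 gene identifiers.

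The test was run on rounded expected counts in edgeR 4.0.16 under R 4.3.3 (TMM scaling, filterByExpr with a minimum count of 10, glmQLFit and glmQLFTest, 1 fit over 5 groups), with Benjamini-Hochberg adjustment over 15625 genes. Log2 CPM used a prior count of 2. Alternatives were the Wald test of DESeq2 1.42.0, its size factors in the edgeR fit, no filter, a fit of only the groups compared, a replicate block, a log2 fold change of at least 1, FPKM or TMM-scaled CPM per kilobase for TPM, log2(TPM + 1) and each library left out in turn. Scripts were tested on simulated data. Figures and permutation tests used Python 3.11.15, scipy 1.17.1 and matplotlib 3.10.9. All 10 genes were named, with up to 4 genes of each other list that had the lowest adjusted p in a comparison, and the 5 genes most like Fasn and the 5 most like Srebf1. Some genes that this rule names are not reported here. Others, such as Scd1, Adipoq, Lep and Elovl6, were chosen after their values were seen. The 10 genes and the lists were chosen with earlier results of these data known. Depth sets the precision, which is lowest for Pnpla3. Gene positions are from GENCODE vM21 and promoters from RefSeq, both on GRCm38.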

Additional observations from a re-analysis of the deposited data

Results flagged for a closer look

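In 6 of 40 sets of a gene and a group of 4 to 8 libraries, the lowest library lay far from the nearest other, measured on log2 CPM as the gap divided by the range of the group. Chance marks about 1 in 20 such sets when they are independent. These sets were not, since genes moved together within libraries, so the 2 shares cannot be compared. In nonDEN-L-WD replicate 4 was far below the other 3 for Srebf1 (gap over range 0.9348), Thrsp (0.9287) and Acss2 (0.8726). In DEN-L-CD replicate 1 was far below for Thrsp (0.8594). For Pnpla3, DEN-PT-WD 7 (0.6232, at 0.12 TPM) and DEN-T-WD 5 (0.7308, at 0.16 TPM) were far below their groups. The western diet effect on Srebf1 differed with DEN from that without DEN, with a log2 difference of -1.80 (edgeR adjusted p = 0.0257).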

How the results depend on the processing

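The count of the 10 genes that changed was compared across alternatives. For peritumoral liver against nonDEN-L-WD it was 0 with no filter, with only the groups compared, with the replicate block and with a log2 fold change of at least 1, in place of 1. For the western diet without DEN it was 3 with the replicate block and 2 with DESeq2, in place of 1. For DEN on the control diet it was 1 with the block, 2 with a log2 fold change of at least 1, and 4, with Pnpla3, in DESeq2 and with only the groups compared, in place of 3. For tumors against peritumoral liver it was 2 with a log2 fold change of at least 1, in place of 4. On log2(TPM + 1), 5 relations passed in place of 9. The cause was not tested. With a library left out the counts were 1 to 2 for the western diet without DEN, 1 to 3 for DEN on the control diet, 0 to 2 in peritumoral liver against DEN-L-CD, 0 to 1 against nonDEN-L-WD, 4 in each fit for tumors against peritumoral liver, and 0 to 2 for the interaction. Replicate numbers pair nothing by the labels, and in no comparison did all same-numbered pairs correlate above 0.1 (-0.23 to 0.34 for tumors and peritumoral liver), so the block says only that libraries share a number. Under it Pnpla3 in tumors gave 1.22 (edgeR adjusted p = 0.186).

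Log2 fold changes that turned in sign had not passed the threshold. With a library left out, Acaca ranged from -0.17 to 0.17 for DEN on the control diet (0.00486 with no filter), from -0.0182 to 0.40 in peritumoral liver against nonDEN-L-WD and from -0.0130 to 0.41 for the interaction. Acacb ranged from -0.0547 to 0.43 for the interaction (-0.0434 with the block). Me1 ranged from -0.50 to 0.0165 in peritumoral liver against nonDEN-L-WD and from -0.35 to 0.17 for the western diet without DEN (0.13 with the block). Pnpla3 ranged from -0.48 to 0.41 in peritumoral liver against DEN-L-CD (0.0378 with the block), from -1.02 to 0.0379 for the interaction and from -0.19 to 0.83 for the western diet without DEN. The counts of the lists without DEN-T-WD 5 and the fits of list genes with each library left out were chosen after seeing the data. Acly without DEN-PT-WD 6, the Thrsp interaction without it (-1.72, edgeR adjusted p = 0.0303) and Srebf1 in tumors without DEN-T-WD 3 (-0.72, edgeR adjusted p = 0.0457) passed where they had not before.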
